A study of Mus musculus with 6 samples.

Results

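The genes described here are 9 candidates for differences in gene copy number between B6 mouse substrains: Wdfy1, Plac9a, Plac9b, Tmem254a, Tmem254b, Tmem254c, Nnt, Ide and Entpd4. They were chosen by gene symbol, and every probe set that lists one of these symbols was taken, also where it lists several, which gave 21 of the 45037 probe sets measured. The list was drawn up with earlier results of these arrays known, so the members' differences between groups are given as a description. Their p-values are not printed. Calls of members, their counts at a p threshold and their intervals are part of that description and test nothing. Heart RNA of male mice aged 2 months had been hybridised to 6 Affymetrix mouse arrays, 2 for each of the 3 groups. The RKIP-transgenic mice express RKIP, a protein that inhibits RAF and G-protein-coupled receptor kinases (GRKs), behind the alpha-MHC promoter, which is active in heart muscle cells. GRK-Inh-transgenic mice express a peptide inhibitor of GRKs in the myocardium, from a promoter the labels do not name, and B6 control mice are labelled wild type. All 3 groups carry the strain label B6, and no label names a substrain. No label says whether a separate animal was used for each array or how the transgenic lines were bred, so the spread between arrays may be technical. Arrays measure RNA, and DNA copy number was not measured.

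B6 is a family of mouse colonies that have been bred apart, and these substrains differ at a small number of genes. The best known is Nnt, which lacks several exons in the C57BL/6J substrain and encodes an enzyme of the inner mitochondrial membrane that uses the proton gradient to make NADPH, the reductant of the peroxide defence. Ide lies in a segment that is duplicated in some C57BL/6J mice, and the Plac9 and Tmem254 genes stand in near-identical repeats in the mouse reference genome, which is itself C57BL/6J.

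The paralogs cannot be separated by most of the probe sets. Both Plac9 probe sets list Plac9a, Plac9b and Gm9780, the brighter Tmem254 probe set lists Tmem254a, Tmem254b and Tmem254c, and of the 4 Entpd4 probe sets 3 also list Entpd4b and the other Gm16867. The repeat is shown by the promoters in RefSeq (GRCm38.p6, minus strand), which had an entry for 6 of the 9 genes. The windows of Plac9a (chr14:25902844-25903143) and Plac9b (chr14:26182302-26182601) shared a run of 222 bases, given in capitals below, and that of Gm9780 was identical to that of Plac9b. The windows of Tmem254a (chr14:25927623-25927922) and Tmem254b (chr14:26206976-26207275) shared 284 bases, also in capitals, each being the first of 2 windows listed for its gene, and that of Tmem254c was identical to that of Tmem254a. Each window holds 300 bases, 250 of them before the annotated start. The run fills bases 1 to 222 of the Plac9a and 79 to 300 of the Plac9b window, and 17 to 300 of the Tmem254a and 1 to 284 of the Tmem254b window. The windows of a pair are thus offset, and the lower-case bases lie outside the stretch that both windows cover.
Plac9a: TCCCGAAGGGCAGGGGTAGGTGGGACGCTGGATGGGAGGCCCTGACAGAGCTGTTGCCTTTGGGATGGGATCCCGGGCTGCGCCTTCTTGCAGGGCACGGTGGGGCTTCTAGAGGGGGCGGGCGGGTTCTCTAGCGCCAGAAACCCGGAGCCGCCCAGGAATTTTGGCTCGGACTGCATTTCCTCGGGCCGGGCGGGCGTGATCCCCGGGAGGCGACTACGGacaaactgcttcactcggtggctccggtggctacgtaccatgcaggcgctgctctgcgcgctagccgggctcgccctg
Plac9b: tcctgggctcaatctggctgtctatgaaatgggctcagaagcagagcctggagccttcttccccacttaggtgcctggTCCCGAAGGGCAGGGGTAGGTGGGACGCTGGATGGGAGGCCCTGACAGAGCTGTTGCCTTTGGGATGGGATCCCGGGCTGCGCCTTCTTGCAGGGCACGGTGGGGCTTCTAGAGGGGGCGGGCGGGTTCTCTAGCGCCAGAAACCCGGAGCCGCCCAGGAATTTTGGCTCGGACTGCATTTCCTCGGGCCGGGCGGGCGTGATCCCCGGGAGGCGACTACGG
Tmem254a: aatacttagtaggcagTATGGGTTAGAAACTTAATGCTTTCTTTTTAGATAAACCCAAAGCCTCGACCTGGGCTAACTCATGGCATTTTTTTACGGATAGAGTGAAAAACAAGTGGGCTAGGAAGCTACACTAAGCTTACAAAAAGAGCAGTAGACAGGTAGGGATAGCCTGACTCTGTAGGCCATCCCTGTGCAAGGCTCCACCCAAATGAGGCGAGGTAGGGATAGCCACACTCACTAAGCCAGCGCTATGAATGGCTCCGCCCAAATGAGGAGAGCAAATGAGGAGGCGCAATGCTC
Tmem254b: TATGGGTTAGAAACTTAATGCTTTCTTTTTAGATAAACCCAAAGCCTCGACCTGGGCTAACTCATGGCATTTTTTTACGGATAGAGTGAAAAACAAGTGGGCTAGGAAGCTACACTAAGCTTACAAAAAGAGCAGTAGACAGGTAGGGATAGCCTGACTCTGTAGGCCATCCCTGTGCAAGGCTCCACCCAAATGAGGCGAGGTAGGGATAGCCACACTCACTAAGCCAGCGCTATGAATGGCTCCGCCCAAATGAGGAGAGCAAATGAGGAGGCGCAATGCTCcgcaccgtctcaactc

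In the GRK-Inh-transgenic hearts, Wdfy1, the Plac9 and Tmem254 genes and Nnt gave lower signals than in the B6 control hearts, and Entpd4 gave higher ones. The RKIP-transgenic hearts had Wdfy1 signals near those of the controls, moderately lower Plac9, Tmem254 and Nnt signals, and higher Entpd4 signals. No Ide probe set was called in any comparison, and its ratios of mean signals to control lay between 0.902 and 1.31. A probe set is counted as called where limma's moderated test, fitted on log2(signal + 50) of all probe sets, gave a Benjamini-Hochberg adjusted p under 0.05. Between GRK-Inh-transgenic and control hearts 11 of the 21 probe sets were called, 2 higher and 9 lower, where 3.13% of all probe sets were called, 1.54% higher and 1.59% lower. Between RKIP-transgenic and control hearts 4 were called, 2 higher and 2 lower, where 2.03% of all were called, 1.12% higher and 0.91% lower. Between RKIP-transgenic and GRK-Inh-transgenic hearts 9 were called, all higher, where 1.63% of all were called with 0.715% higher and 0.919% lower. The members were chosen with these comparisons in view, and nothing is read from the counts. At an unadjusted p under 0.05 the shares of all probe sets were 13.8% between RKIP-transgenic and control hearts and 15.3% between GRK-Inh-transgenic and control hearts. Between the transgenic groups it was 12.9%. All these shares are set beside the counts of single loci and gene lists below as well. They are not a like basis for the gene lists, whose genes are represented by their brightest probe set. The comparisons of the transgenic groups with controls share the control arrays. With 2 arrays a group, the arrays of the groups compared did not overlap on 42.2% of all probe sets between RKIP-transgenic and control hearts, 44.5% between GRK-Inh-transgenic and control hearts and 42.5% between RKIP-transgenic and GRK-Inh-transgenic hearts, so nothing is read from the absence of overlap on a member.

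**Figure D1:**
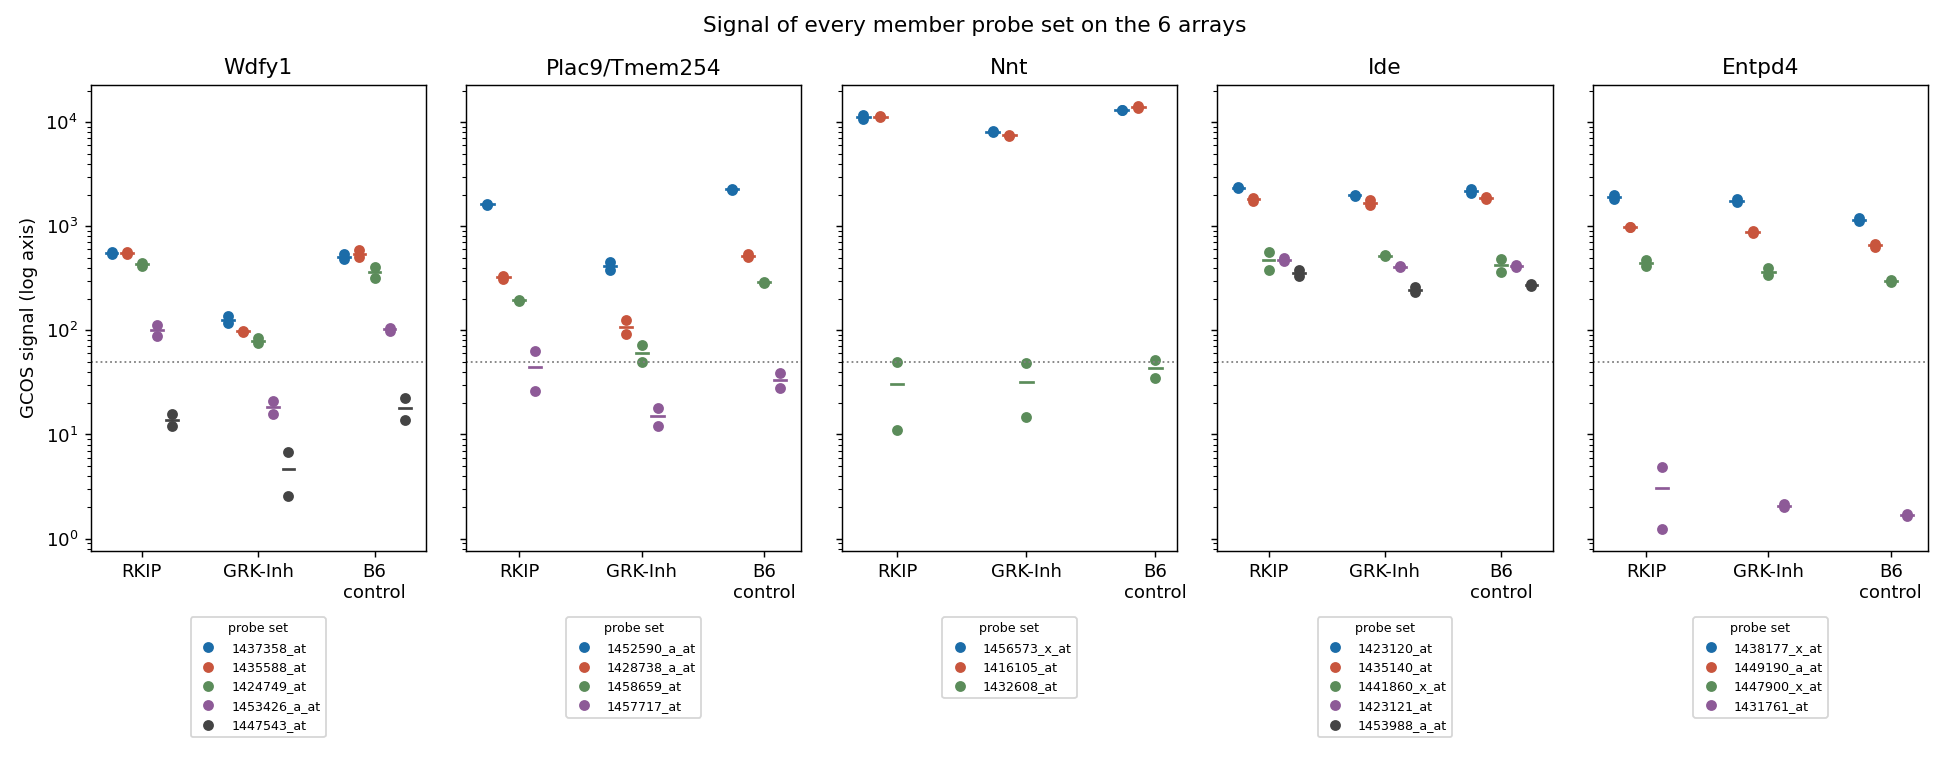
Signal of all 21 member probe sets on a log axis, by group, with 1 panel per locus. Points are arrays (2 per group), short bars are group means, and the dotted line at 50.2 is the median level of all probe sets. On probe sets above that line, Wdfy1, Plac9 and Tmem254 points of the GRK-Inh-transgenic arrays lie well below those of the other groups. Nnt is lower there to a smaller degree, and Entpd4 is lowest in the B6 control arrays. The dim 1432608_at of Nnt and 1431761_at of Entpd4 have their lowest point on an RKIP-transgenic array.

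Of the 21 probe sets, 17 had a mean at or above the median level of all probe sets, a signal of 50.2. The dim ones were 1447543_at of Wdfy1, 1457717_at of Tmem254a, 1432608_at of Nnt and 1431761_at of Entpd4 and Gm16867, and none of these 4 was called in any comparison. Of these, 1431761_at gave signals of at most 4.84 on any array, against 294 or more on every array for the other Entpd4 probe sets.

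Wdfy1 encodes a protein with WD40 repeats and a FYVE domain, which binds the endosomal lipid PI3P, and in mouse cells it links Toll-like receptors 3 and 4 to the adaptor TRIF. Its probe set 1435588_at had signals of 547 and 563 on the RKIP-transgenic arrays, 96.2 and 99.0 on the GRK-Inh-transgenic arrays and 591 and 503 on the control arrays. The GRK-Inh-transgenic arrays were far below the other 4, and the RKIP-transgenic values lay between the control values. The log2 difference from control was -2.01 ± 0.10 in GRK-Inh-transgenic hearts and 0.023 ± 0.10 in RKIP-transgenic hearts (± SE, 2 arrays a group). Probe set 1437358_at gave 546 and 563 in RKIP-transgenic hearts, 137 and 117 in GRK-Inh-transgenic hearts and 538 and 484 in control hearts. Probe set 1424749_at gave 416 and 448 in RKIP-transgenic hearts, 83.5 and 76.1 in GRK-Inh-transgenic hearts and 316 and 406 in control hearts. On both, the RKIP-transgenic arrays lay slightly above the control arrays (no overlap, as on 42.2% of all probe sets), and the GRK-Inh-transgenic arrays were again the lowest. The dimmer 1453426_a_at gave 113 and 88.9 in RKIP-transgenic hearts, 15.9 and 21.2 in GRK-Inh-transgenic hearts and 99.1 and 105 in control hearts. The ratio of mean signals of GRK-Inh-transgenic to control hearts was 0.248 for 1437358_at, 0.178 for 1435588_at, 0.221 for 1424749_at and 0.181 for 1453426_a_at. These 4 probe sets to the same gene therefore gave like ratios, whereas their log2 differences ran from -2.01 to -1.15, since the offset of 50 shrinks the difference of dim probe sets. The call of 1453426_a_at was lost without any 1 of the 4 arrays. The dim 1447543_at gave 12.1 and 15.8 in RKIP-transgenic hearts, 6.72 and 2.57 in GRK-Inh-transgenic hearts and 13.7 and 22.4 in control hearts. Between RKIP-transgenic and GRK-Inh-transgenic hearts the log2 difference of 1435588_at was 2.04 ± 0.10, the highest of all 45037 probe sets. Of the 5 Wdfy1 probe sets, which measure the same gene, 4 were called higher there, beside 0.715% of all probe sets. Between RKIP-transgenic and control hearts 0 of the 5 were called by limma, and 0 had an unadjusted p under 0.05, with a 95% interval for 1435588_at of -0.22 to 0.26.

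Plac9 encodes a small secreted protein first described in placenta, and Tmem254 a small membrane protein. The Plac9 probe set 1452590_a_at gave 1648 and 1611 in RKIP-transgenic hearts, 449 and 380 in GRK-Inh-transgenic hearts and 2304 and 2212 in control hearts. The 3 groups did not overlap, with the controls highest and the GRK-Inh-transgenic hearts lowest. The log2 difference from control was -2.32 ± 0.078 in GRK-Inh-transgenic hearts and -0.46 ± 0.078 in RKIP-transgenic hearts. The other Plac9 probe set, 1458659_at, gave 193 and 194 in RKIP-transgenic hearts, 72.0 and 49.6 in GRK-Inh-transgenic hearts and 287 and 293 in control hearts. The shared Tmem254 probe set 1428738_a_at gave 336 and 311 in RKIP-transgenic hearts, 92.9 and 125 in GRK-Inh-transgenic hearts and 505 and 537 in control hearts. All 3 bright probe sets of the repeat kept the same order of groups without overlap. Between a single pair of groups 42.2% to 44.5% of all probe sets lacked overlap, and the share with all 3 groups apart was not computed. The ratio of mean signals of GRK-Inh-transgenic to control hearts was 0.184 for 1452590_a_at, 0.210 for 1458659_at and 0.209 for 1428738_a_at. The ratio of RKIP-transgenic to control hearts was 0.722 for 1452590_a_at, 0.668 for 1458659_at and 0.620 for 1428738_a_at. In RKIP-transgenic hearts only 1452590_a_at was called against control, and that call was lost when any 1 array of the 2 groups was left out. The Tmem254a probe set 1457717_at, the only one that lists Tmem254a alone, gave 64.0 and 25.9 in RKIP-transgenic hearts, 18.0 and 12.1 in GRK-Inh-transgenic hearts and 28.1 and 39.1 in control hearts. There the RKIP-transgenic and control arrays overlapped, all but 1 signal lay below the median level of all probe sets, and the GRK-Inh-transgenic arrays were lowest.

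Nnt had probe sets with high signals in all groups. Probe set 1416105_at gave 11385 and 11228 in RKIP-transgenic hearts, 7501 and 7422 in GRK-Inh-transgenic hearts and 13589 and 14269 in control hearts. Probe set 1456573_x_at gave 10704 and 11828 in RKIP-transgenic hearts, 8000 and 8267 in GRK-Inh-transgenic hearts and 13165 and 13017 in control hearts. On both, the groups did not overlap and followed the order seen for Plac9 and Tmem254, with the controls highest. The share of 42.2% to 44.5% of all probe sets is for a single pair of groups, and that for all groups apart was not computed. The log2 difference from control of 1416105_at was -0.90 ± 0.041 in GRK-Inh-transgenic and -0.30 ± 0.041 in RKIP-transgenic hearts. For 1456573_x_at it was -0.68 ± 0.053 in GRK-Inh-transgenic and -0.22 ± 0.053 in RKIP-transgenic hearts, and the difference in RKIP-transgenic hearts was not called. The RKIP-transgenic call of 1416105_at was lost without either RKIP-transgenic array and without control array 2. Affymetrix adds _x_at to probe sets in which some probes match other sequences. As a ratio of mean signals, GRK-Inh-transgenic hearts had 0.536 of the control level by 1416105_at and 0.621 by 1456573_x_at. The dim 1432608_at ranged from 11.0 to 52.3 over the 6 arrays, and its groups overlapped in all comparisons. The files do not say which exons the Nnt probes match.

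Entpd4, which encodes a nucleoside diphosphatase of the Golgi apparatus and lysosomes, had its lowest signals in the control hearts on its 3 bright probe sets. Probe set 1438177_x_at gave 1997 and 1823 in RKIP-transgenic hearts, 1817 and 1718 in GRK-Inh-transgenic hearts and 1121 and 1189 in control hearts. Probe set 1449190_a_at gave 981 and 975 in RKIP-transgenic hearts, 867 and 893 in GRK-Inh-transgenic hearts and 670 and 638 in control hearts. Every array of a transgenic group exceeded both control arrays. Such a lack of overlap was seen on 42.2% (RKIP-transgenic) and 44.5% (GRK-Inh-transgenic) of all probe sets, in either direction. The log2 difference from control of 1438177_x_at was 0.70 ± 0.065 in RKIP-transgenic and 0.59 ± 0.065 in GRK-Inh-transgenic hearts. For 1449190_a_at it was 0.55 ± 0.063 in RKIP-transgenic and 0.40 ± 0.063 in GRK-Inh-transgenic hearts. The third probe set, 1447900_x_at, gave 411 and 473 in RKIP-transgenic hearts, 395 and 340 in GRK-Inh-transgenic hearts and 303 and 294 in control hearts. Its arrays kept the same order of groups, but it was not called in either comparison. The call of 1449190_a_at was lost in GRK-Inh-transgenic hearts without any 1 of the 4 arrays, and in RKIP-transgenic hearts without either RKIP-transgenic array. As ratios of mean signals to control, the 3 bright probe sets gave 1.65, 1.495 and 1.48 in RKIP-transgenic hearts, in the order named. The same ratios were 1.53, 1.35 and 1.23 in GRK-Inh-transgenic hearts. The transgenic groups were not called different from each other on any Entpd4 probe set, also at an unadjusted p under 0.05 (0 of 4). The 95% interval of the RKIP-transgenic minus GRK-Inh-transgenic difference for 1438177_x_at was -0.043 to 0.26.

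Ide encodes the insulin-degrading enzyme, a zinc peptidase that cleaves insulin and amyloid beta. Its brightest probe set, 1423120_at, gave 2396 and 2306 in RKIP-transgenic hearts, 1964 and 2014 in GRK-Inh-transgenic hearts and 2079 and 2289 in control hearts. Probe set 1435140_at gave 1861 and 1756 in RKIP-transgenic hearts, 1780 and 1586 in GRK-Inh-transgenic hearts and 1890 and 1840 in control hearts. On 1435140_at the RKIP-transgenic arrays overlapped with both other groups. Probe set 1453988_a_at had the highest ratios of RKIP-transgenic hearts to both other groups, with 334 and 380 in RKIP-transgenic hearts, 232 and 260 in GRK-Inh-transgenic hearts and 279 and 265 in control hearts. Its log2 difference was 0.34 ± 0.11 between RKIP-transgenic and control hearts, and 0.46 ± 0.11 between RKIP-transgenic and GRK-Inh-transgenic hearts. By limma 0 of the 5 probe sets were called in any of the 3 comparisons. At an unadjusted p under 0.05 there was 1 between RKIP-transgenic and control hearts, beside 13.8% of all probe sets. There were 0 between GRK-Inh-transgenic and control hearts (15.3% of all) and 3 between RKIP-transgenic and GRK-Inh-transgenic hearts (12.9% of all). For 1423120_at the 95% interval of the difference from control was -0.031 to 0.24 in RKIP-transgenic hearts and -0.27 to 0.0061 in GRK-Inh-transgenic hearts. On a further pair of probe sets the signals were 491 and 459 in RKIP-transgenic hearts, 404 and 415 in GRK-Inh-transgenic hearts and 404 and 426 in control hearts for 1423121_at. For 1441860_x_at they were 568 and 382 in RKIP-transgenic hearts, 522 and 525 in GRK-Inh-transgenic hearts and 488 and 364 in control hearts. The RKIP-transgenic arrays were highest on 1423121_at, whereas those of 1441860_x_at overlapped with both other groups.

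**Figure D2:**
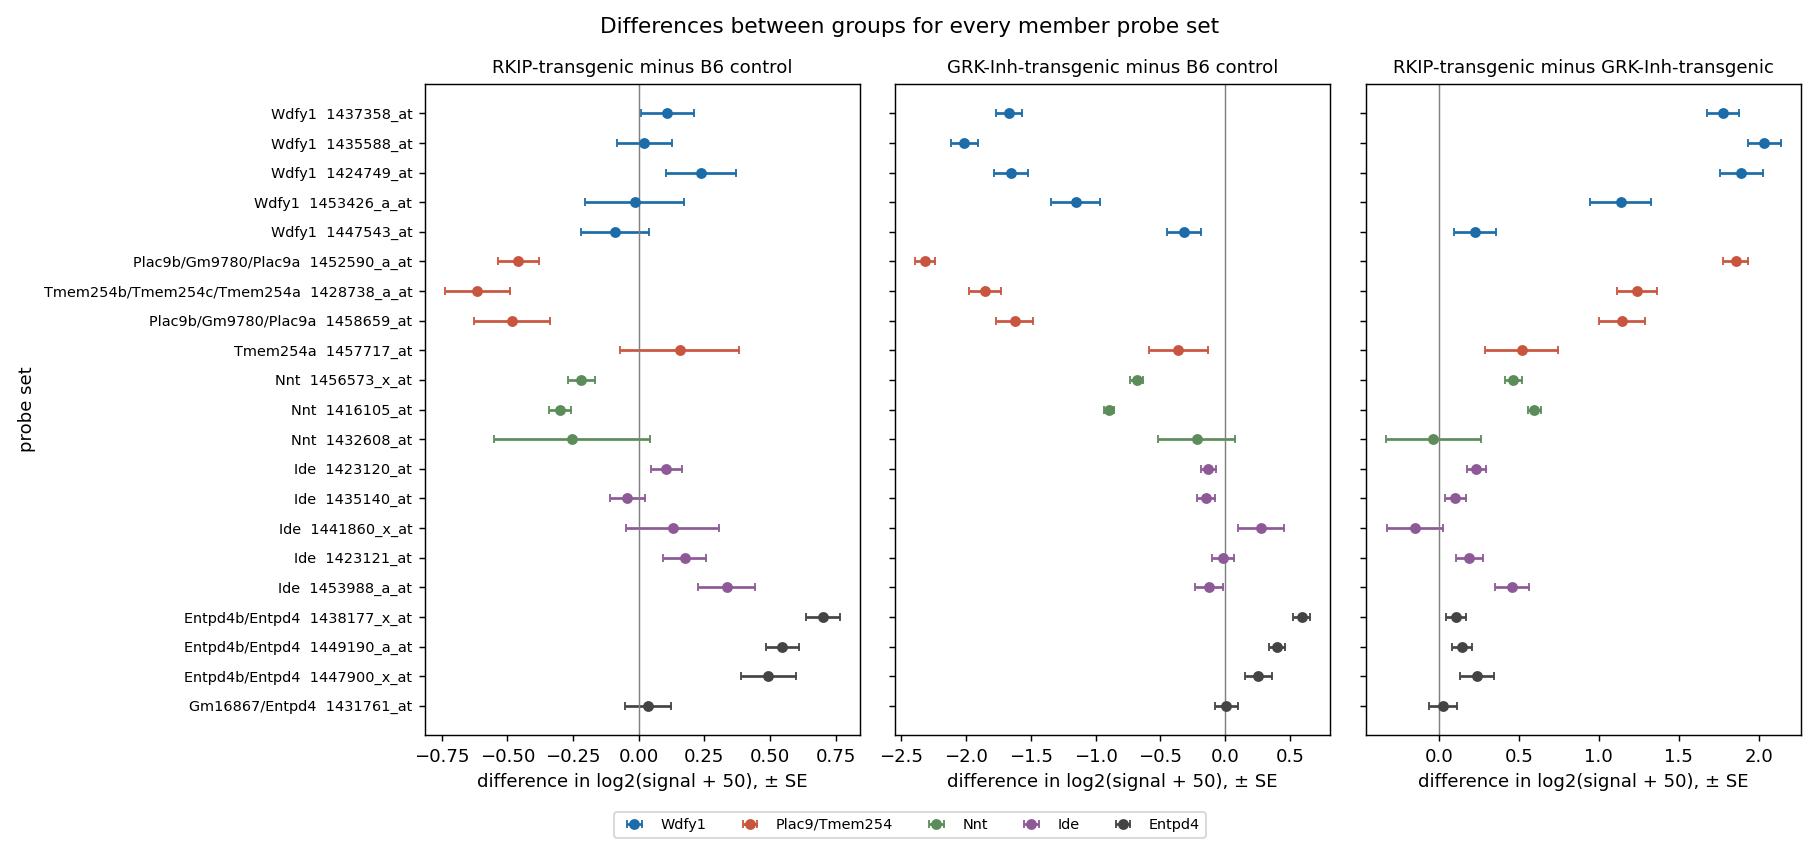
Differences in log2(signal + 50) with their SE for the 21 member probe sets, colored by locus. The panels show RKIP-transgenic minus B6 control, GRK-Inh-transgenic minus B6 control and RKIP-transgenic minus GRK-Inh-transgenic, each on its own scale. The middle panel reaches -2.32 for a Plac9 probe set and -2.01 for a Wdfy1 probe set, and the Entpd4 probe sets lie above 0 in the left and middle panels.

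Ordered from the lowest log2 difference between GRK-Inh-transgenic and control hearts, 6 of the 10 lowest of all 45037 probe sets were members, and 1452590_a_at of Plac9 was at place 2. Between RKIP-transgenic and GRK-Inh-transgenic hearts 4 members were among the 10 highest. Between RKIP-transgenic and control hearts 0 members were among the 10 lowest and 0 among the 10 highest, with 1438177_x_at of Entpd4 at place 197 from the highest and 1428738_a_at of Tmem254 at place 396 from the lowest. The median log2 difference of the 21 probe sets was -0.32 between GRK-Inh-transgenic and control hearts, beside -0.019 over all probe sets, and 0.036 between RKIP-transgenic and control hearts, beside -0.0028 over all. Between RKIP-transgenic and GRK-Inh-transgenic hearts the median was 0.46, beside 0.019 over all. The list of genes was drawn up with these values known.

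**Figure D3:**
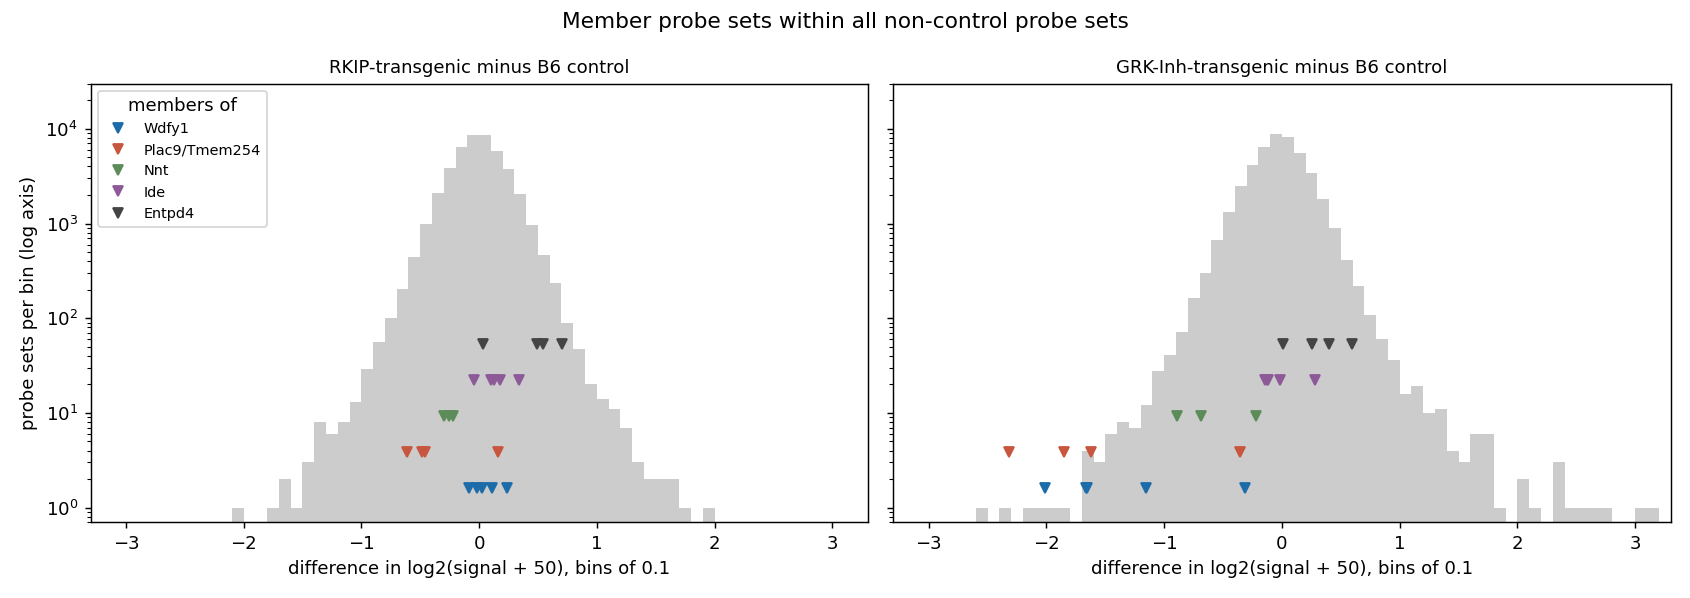
Number of all non-control probe sets per bin of 0.1 in the log2 difference (grey bars, log axis), for RKIP-transgenic minus B6 control and GRK-Inh-transgenic minus B6 control. Triangles mark the member probe sets by locus at heights that carry no value. In the GRK-Inh-transgenic comparison 6 members are among the 10 lowest probe sets, and in the RKIP-transgenic comparison 0 are.

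The genes next to the members were not part of the choice and were tested. For each locus the 5 nearest genes on each side with a probe set of their own were taken in the order of the RefSeq gene table, which gave 50 genes on chromosomes 1 (Wdfy1), 13 (Nnt), 14 (Plac9 and Tmem254, and Entpd4) and 19 (Ide). By limma 3 of the 50 (6%, beside 3.13% of all probe sets) were called between GRK-Inh-transgenic and control hearts, 1 (2%, beside 2.03%) between RKIP-transgenic and control hearts and 4 (8%, beside 1.63%) between RKIP-transgenic and GRK-Inh-transgenic hearts. At an unadjusted p under 0.05 these counts were 13, 10 and 10 of the 50. Each is a larger share than over all probe sets, where it was 15.3%, 13.8% and 12.9%. With any 1 array left out, 1 was called between GRK-Inh-transgenic and control hearts, 1 between RKIP-transgenic and control hearts and 0 or 1 between the transgenic groups (4 to 11 at an unadjusted p under 0.05). The neighbours are the brightest probe sets of their genes, whereas the shares above include dim probe sets and those without a symbol. With 1 probe set per gene and the filter at the median level, 30 neighbours and 11254 genes were left. On that like basis 6 neighbours were called between GRK-Inh-transgenic and control hearts, beside 1477 of all genes. Between RKIP-transgenic and control hearts 4 were called, beside 1219, and between the transgenic groups 4, beside 993. The median log2 difference of the neighbours was -0.064 in GRK-Inh-transgenic and -0.023 in RKIP-transgenic hearts against control.

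None of the 10 neighbours of Wdfy1 was called in any comparison. At an unadjusted p under 0.05 there were 4 between GRK-Inh-transgenic and control hearts, 3 between RKIP-transgenic and control hearts and 2 between RKIP-transgenic and GRK-Inh-transgenic hearts. The gene next to Wdfy1 on one side, Mrpl44, which encodes a protein of the mitochondrial ribosome, averaged 3088 in RKIP-transgenic hearts, 2877 in GRK-Inh-transgenic hearts and 3100 in control hearts. On the other side Ap1s3, the gene of a clathrin adaptor subunit, was dim, at 28.2 in RKIP-transgenic hearts, 14.5 in GRK-Inh-transgenic hearts and 8.38 in control hearts. The lowest log2 difference among the Wdfy1 neighbours in GRK-Inh-transgenic hearts was -0.48, against -1.67 for 1437358_at, the brightest Wdfy1 probe set. The Wdfy1 probe sets ran from -2.01 to -0.32, the latter for the dim 1447543_at. Of the 10 neighbours 6 were at or above the median level, and the offset shrinks the differences of the dimmer ones.

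Beside the Plac9 and Tmem254 repeat, Zcchc24 averaged 362 in RKIP-transgenic hearts, 350 in GRK-Inh-transgenic hearts and 369 in control hearts, and was not called. On the other side Cphx3, a homeobox gene, averaged 83.0 in RKIP-transgenic hearts, 44.8 in GRK-Inh-transgenic hearts and 63.9 in control hearts, and was not called. The third gene on that side, Slmap, which encodes a membrane protein of the sarcolemma, was called higher in GRK-Inh-transgenic hearts, opposite to the members. Its signals were 6555 and 6078 in RKIP-transgenic hearts, 8421 and 8198 in GRK-Inh-transgenic hearts and 5419 and 5526 in control hearts. The GRK-Inh-transgenic arrays were above all others. The log2 difference between GRK-Inh-transgenic and control hearts was 0.60 ± 0.048 (limma, adjusted p = 0.000607, range 1.5e-05 to 0.0972 over the alternatives, lost with a variance without trend). Between RKIP-transgenic and GRK-Inh-transgenic hearts Slmap was called lower, at -0.39 ± 0.048 (limma, adjusted p = 0.00798), a call lost without RKIP-transgenic array 2 and without either GRK-Inh-transgenic array.

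Around Nnt, Tmem267, the fourth gene on one side, was called higher in both transgenic groups. Its signals were 641 and 623 in RKIP-transgenic hearts, 402 and 425 in GRK-Inh-transgenic hearts and 263 and 295 in control hearts. The 3 groups did not overlap, with the RKIP-transgenic hearts highest. The log2 difference from control was 1.05 ± 0.088 in RKIP-transgenic hearts (limma, adjusted p = 0.00118) and 0.49 ± 0.088 in GRK-Inh-transgenic hearts (limma, adjusted p = 0.0236). The call in GRK-Inh-transgenic hearts was lost without any 1 of their arrays or of the control arrays, and the call in RKIP-transgenic hearts was kept in each such case. Parp8, the gene of an ADP-ribosyltransferase and the fifth gene on the other side, was called lower in GRK-Inh-transgenic hearts. Parp8 signals were 198 and 184 in RKIP-transgenic hearts, 81.3 and 77.3 in GRK-Inh-transgenic hearts and 175 and 198 in control hearts. The log2 difference between GRK-Inh-transgenic and control hearts was -0.87 ± 0.14 (limma, adjusted p = 0.0142), a call lost without any 1 of the 4 arrays. The nearest measured genes beside Nnt were not called: the growth factor gene Fgf10 was dim, with means of 17.4 to 30.5 over the groups, and Paip1, which encodes a partner of the poly(A)-binding protein, averaged 695 in RKIP-transgenic hearts, 631 in GRK-Inh-transgenic hearts and 638 in control hearts.

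Near Ide, Cpeb3, the gene of an RNA-binding regulator of translation, averaged 4633 ± 121 in RKIP-transgenic hearts, 3508 ± 133 in GRK-Inh-transgenic hearts and 4059 ± 130 in control hearts (± SD of 2 arrays). It was called between the transgenic groups, higher in the RKIP-transgenic hearts by 0.40 ± 0.050 (limma, adjusted p = 0.00859), a call lost without any 1 of the 4 arrays. The nearest measured genes beside Ide were dim and not called, Kif11, a mitotic kinesin gene, with means of 25.2 to 33.9 and 4931408D14Rik with means of 36.4 to 55.5. Next to Entpd4 the iron carrier gene Slc25a37 averaged 178 in RKIP-transgenic hearts, 178 in GRK-Inh-transgenic hearts and 211 in control hearts, and R3hcc1 averaged 134 in RKIP-transgenic hearts, 140 in GRK-Inh-transgenic hearts and 171 in control hearts. None of the 10 neighbours of Entpd4 was called in any comparison, with 2, 1 and 0 at an unadjusted p under 0.05 when RKIP-transgenic hearts were set against controls, GRK-Inh-transgenic hearts against controls and the RKIP-transgenic against the GRK-Inh-transgenic hearts.

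**Figure D4:**
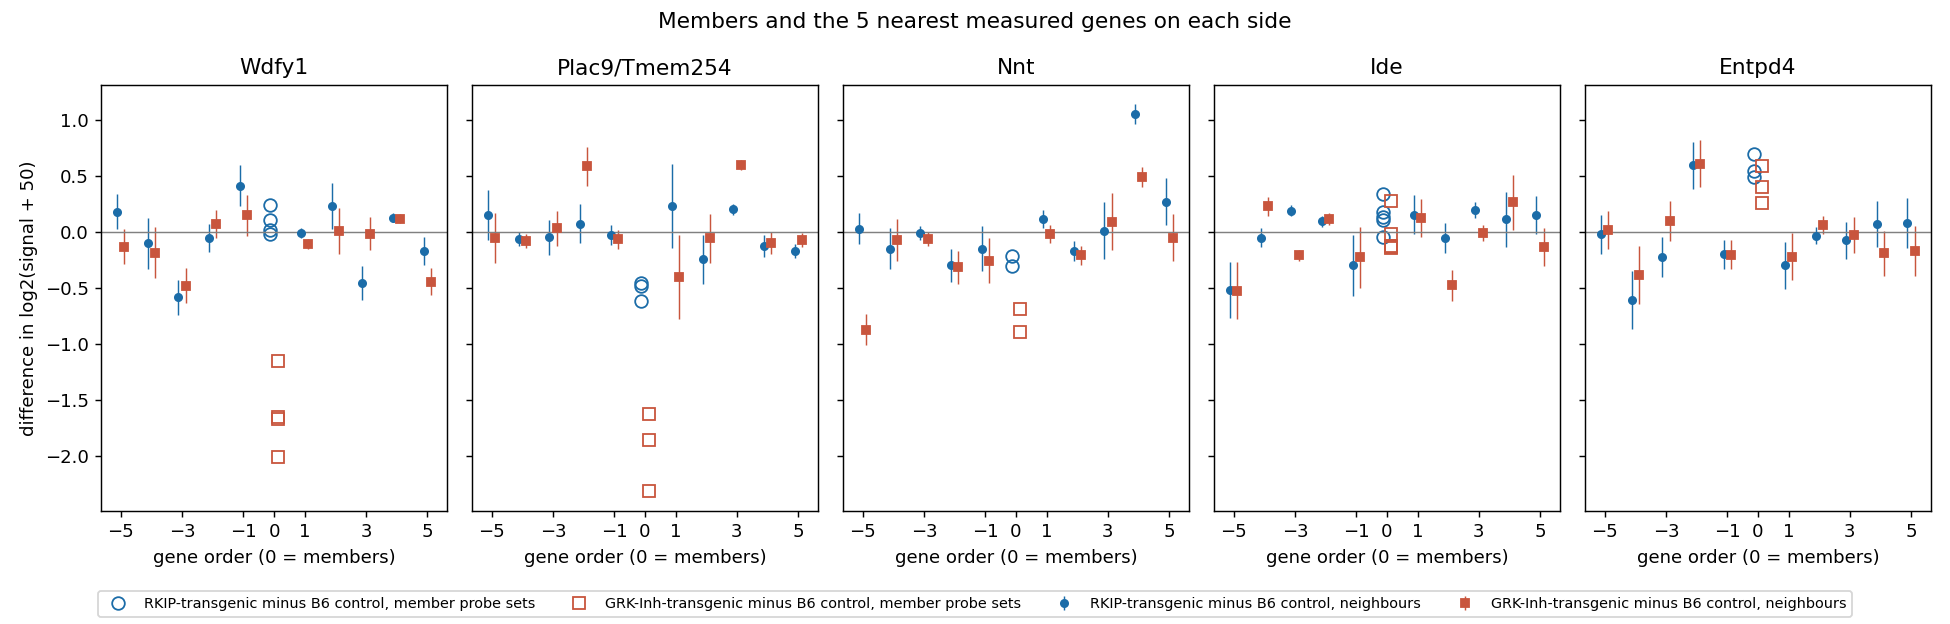
Differences in log2(signal + 50) from B6 control by gene order around each locus, with the members at 0 (open symbols, probe sets at or above the median level) and neighbours as filled symbols with SE. Circles are RKIP-transgenic minus B6 control and squares GRK-Inh-transgenic minus B6 control. Tmem267 is the neighbour at 1.05 near Nnt, and no neighbour reaches the values of Wdfy1 or of the Plac9 and Tmem254 probe sets in the GRK-Inh-transgenic hearts. Neighbours are shown at any level: 30 of the 50 were at or above the median level, and the offset of 50 shrinks the differences of the dimmer ones.

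The gene lists from here on were, like the members, chosen with earlier results of these arrays known. Their calls and p-values are therefore a description and not independent tests. Of 6 other genes with known variants between B6 substrains, 5 were measured, and 0 were called in any of the 3 comparisons. At an unadjusted p under 0.05 there were 1 between RKIP-transgenic and control hearts, 1 between GRK-Inh-transgenic and control hearts and 0 between the transgenic groups. Over all probe sets 2.03%, 3.13% and 1.63% were called in these comparisons, so nothing is read from 0 of 5. Nlrp12 was dim, with group means of 2.21 to 9.36, and Crb1 lay near the median level, with means of 42.4 to 63.5. Cyfip2, the gene of an actin regulator, averaged 2438 ± 222 in RKIP-transgenic hearts, 2281 ± 142 in GRK-Inh-transgenic hearts and 2650 ± 105 in control hearts (± SD of 2 arrays). Mmrn1, the gene of a platelet and endothelial matrix protein, averaged 290 ± 14.9 in RKIP-transgenic hearts, 260 ± 6.78 in GRK-Inh-transgenic hearts and 220 ± 19.5 in control hearts. Fgfbp3, named here after its values were seen because it lies in the duplicated segment with Ide (it is also the fifth neighbour on one side), averaged 49.99 ± 20.4 in RKIP-transgenic hearts, 50.7 ± 27.9 in GRK-Inh-transgenic hearts and 91.8 ± 3.42 in control hearts and was not called.

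Of 14 measured genes of mitochondrial NADPH and peroxide handling, 1 was called lower and 0 higher between GRK-Inh-transgenic and control hearts, with 5 at an unadjusted p under 0.05 and a median log2 difference of -0.041. The member called lower was the glutathione peroxidase gene Gpx1, with 3337 ± 87.3 in GRK-Inh-transgenic hearts and 4334 ± 115 in control hearts (± SD of 2 arrays). The log2 difference was -0.37 (limma, adjusted p = 0.0101), a call lost without any 1 of the 4 arrays. Between RKIP-transgenic and control hearts 1 was called higher and 0 lower, with 5 at an unadjusted p under 0.05 and a median of -0.0049, and between the transgenic groups 0 of 14 were called (3 at an unadjusted p under 0.05). That member was Gpx4, the gene of a lipid peroxidase, at 0.22 (limma, adjusted p = 0.0271), also lost without any 1 array.

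Among 15 measured genes of FYVE-domain proteins and TRIF signalling, Tlr4, the gene of the endotoxin receptor that signals through TRIF, was the member called. Tlr4 averaged 377 ± 37.4 in RKIP-transgenic hearts, 709 ± 6.87 in GRK-Inh-transgenic hearts and 239 ± 7.16 in control hearts (± SD of 2 arrays). The log2 difference from control was 1.39 in GRK-Inh-transgenic hearts (limma, adjusted p = 0.000236) and was called under every alternative run. In RKIP-transgenic hearts it was 0.56 (limma, adjusted p = 0.0245), a call lost without any 1 of the 4 arrays. The list medians were -0.012 and -0.017 for GRK-Inh-transgenic and RKIP-transgenic against control hearts. As with the other lists, the p-values belong to genes chosen with earlier results known.

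Of 13 peptidases related to Ide and genes of insulin receptor signalling, 3 were called higher and 1 lower between RKIP-transgenic and control hearts. Over all probe sets these shares were 1.12% and 0.91%, but these include dim probe sets, whereas listed genes are the brightest of their gene. With 1 probe set per gene and the filter at the median level, 599 of 11254 genes were called higher and 620 lower. The list was not counted on that basis, and no enrichment is read from it. Between GRK-Inh-transgenic and control hearts 2 of the 13 were called higher and 0 lower, beside 1.54% and 1.59% of all probe sets. With 1 probe set per gene and the filter, 659 and 818 of 11254 genes were called there. Pik3r1, the gene of the regulatory subunit of PI3 kinase, was called higher in both, by 0.30 in RKIP-transgenic (limma, adjusted p = 0.0234) and 0.51 in GRK-Inh-transgenic hearts (limma, adjusted p = 0.00128). Nrdc, the gene of a peptidase of the same family as Ide, was called higher in RKIP-transgenic hearts, by 0.40 (limma, adjusted p = 0.0303), as was the insulin receptor gene Insr, by 0.30 (limma, adjusted p = 0.0278). The docking protein gene Irs1 was called lower in RKIP-transgenic than in control hearts, at -0.50 (limma, adjusted p = 0.00805). Pmpcb, the gene of a subunit of the mitochondrial processing peptidase, was called higher in GRK-Inh-transgenic hearts, by 0.38 (limma, adjusted p = 0.0178). The calls of Nrdc, Insr, Irs1 and Pmpcb, and that of Pik3r1 in RKIP-transgenic hearts, were lost without any 1 of the 4 arrays compared. Of 9 nucleotidases related to Entpd4, 0 were called against control in either transgenic group (3 at an unadjusted p under 0.05 in GRK-Inh-transgenic and 1 in RKIP-transgenic hearts). Entpd5, a relative of Entpd4 in the endoplasmic reticulum, was called between the transgenic groups, higher in the RKIP-transgenic hearts by 0.31 (limma, adjusted p = 0.0266), a call lost without any 1 of the 4 arrays.

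The genes whose pattern over the 6 arrays was most like that of the members were taken by Pearson's r among 3662 genes with a log2 range of at least 0.5. The first 3 are named for the brightest probe set of each locus. For 1437358_at of Wdfy1 they were Marchf7 (r = 0.999), Ppil3 (0.996) and Tbx2 (0.995), and for 1452590_a_at of Plac9 they were Abcb1a (0.998), Dbp (0.998) and Tgfbr3 (0.997). For 1456573_x_at of Nnt they were Rsad1 (0.996), Abcc1 (0.995) and Tcap (0.993), and for 1438177_x_at of Entpd4 they were Mybpc2 (0.995), Mylk3 (0.993) and Trim54 (0.993). The gene most like each of the other Wdfy1 probe sets was Agpat2 for 1435588_at (0.999), Angpt1 for 1424749_at (0.995) and Srsf5 for 1453426_a_at (0.995). Parp8, a neighbour of Nnt, was the third most like 1424749_at (0.992). For 1458659_at of Plac9 it was Nfia (0.999), for 1428738_a_at of Tmem254 it was Opa3 (0.992), for 1416105_at of Nnt it was Magi3 (0.997) and for 1449190_a_at of Entpd4 it was Amy1 (0.997). The brightest Ide probe set varied by less than 0.5 and was not compared, and for 1453988_a_at of Ide it was Nat9 (0.988). The points are 6 arrays in 3 groups that share the authors' scaling, and 66 genes exceeded 0.95 for 1437358_at of Wdfy1.

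Other measures differed between the same groups. For the counts against control given here, 0.91% of all probe sets were called lower in RKIP-transgenic and 1.59% in GRK-Inh-transgenic hearts. With 1 probe set per gene and the filter at the median level, a basis nearer to that of the markers, these were 620 and 818 of 11254 genes. Cardiac muscle markers had 0 of 6 members called in any comparison (1, 0 and 1 at an unadjusted p under 0.05). Of 6 fibroblast markers 5 were called lower in GRK-Inh-transgenic and 3 in RKIP-transgenic hearts against control, and their summed signal was 31734.3 to 31925.5 in RKIP-transgenic hearts, 29461.5 to 29751.6 in GRK-Inh-transgenic hearts and 40368.5 to 42833.4 in control hearts. Smooth muscle and pericyte markers were called lower for 3 of 5 in RKIP-transgenic and 1 of 5 in GRK-Inh-transgenic hearts. Of 5 endothelial markers 1 was called lower and 0 higher in GRK-Inh-transgenic hearts, with a median log2 difference of 0.020 and a summed signal of 4045 to 4106, against 3964 to 4173 in control hearts. Of 5 macrophage markers 1 was called lower and 0 higher in GRK-Inh-transgenic hearts, with a median of -0.17. In RKIP-transgenic hearts 0 of either list were called against control (2 endothelial and 1 macrophage marker at an unadjusted p under 0.05). White adipocyte markers were called lower for 2 of 3 in RKIP-transgenic and 0 of 3 in GRK-Inh-transgenic hearts. Of 4 lymphocyte markers Ighm was called higher in GRK-Inh-transgenic than in control hearts, and the summed signal of the 4 was 169 to 185 in RKIP-transgenic hearts, 965 to 989 in GRK-Inh-transgenic hearts and 242 to 268 in control hearts. Ighm alone gave 848 and 837 on the GRK-Inh-transgenic arrays. Means in GRK-Inh-transgenic and control hearts were 94.8 and 49.9 for Ms4a1, 31.7 and 6.17 for Cd79a and 7.80 and 27.1 for Cd3e. None of these was called, and Cd3e went the other way. The summed signal of 4 lung markers was at most 184 and that of 3 liver markers at most 144 on any array. The ratio of 3' to 5' actin control signal, a measure of RNA integrity, was 2.92 and 2.96 in RKIP-transgenic hearts, 3.03 and 2.998 in GRK-Inh-transgenic hearts and 3.25 and 3.11 in control hearts. The part of these in the members' differences was not tested, and in bulk tissue fewer cells of a type and less RNA per cell cannot be told apart.

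The counts against the controls in RKIP-transgenic hearts depended on single arrays and on the variance model. The 4 called members became 1 without RKIP-transgenic array 1 and 1 without array 2, 3 without control array 1 and 2 without control array 2, and 0 with a variance without trend. The 11 members called in GRK-Inh-transgenic hearts were 9 without any 1 array and 8 without the trend. Shifting the arrays to one median changed the split of all called probe sets between GRK-Inh-transgenic and control hearts to 930 higher and 558 lower, beside 693 higher and 717 lower, and left the members at 2 higher and 9 lower. For RKIP-transgenic against GRK-Inh-transgenic hearts the split became 202 higher and 484 lower, beside 322 and 414, with the 9 members still called higher.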

How the data were processed

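Per the submitters' processing notes the authors used GCOS, with no version given. The deposited values are a probe set intensity on a linear scale, 1 array per sample, which the authors had scaled: the 2% trimmed mean was 300.002 on every array. Median signals per array were 50.4 to 55.2. Of 45101 probe sets, 64 control probe sets were set aside and 45037 were tested, of which 34945 had a single gene symbol, 932 several and 9160 none in the platform table. Values were transformed as log2(signal + 50) and fitted in R 4.3.3 with limma 3.58.1, in one model over the 6 arrays (3 residual and 5.00 prior degrees of freedom, variance trend), without a filter so that every member has a value. Calls are two-sided, at a Benjamini-Hochberg adjusted p under 0.05 over all probe sets. The median SE of a log2 difference between RKIP-transgenic and control hearts was 0.163, and the number of arrays limits the precision. Neighbours and listed genes are represented by their brightest probe set with a single symbol, and listed genes without one were not analysed here. The RefSeq table (GRCm38.p6) was used for names and gene order; the files name no build.

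The members and lists were chosen with earlier results of these data known. Named genes were every member probe set, the nearest neighbour on each side, up to 3 called neighbours per locus and comparison, up to 4 called members of each list per comparison or 2 of highest signal where none was called, and the 3 most alike genes of each member probe set that spans 0.5, shortened in the text to 1 beyond the brightest of each locus and to none for the dim ones and for 1441860_x_at and 1447900_x_at. Replicate numbers did not pair the arrays: correlations of same-numbered deviations were 0.012, -0.0097 and -0.020. Alternatives were quantile normalization, a shift to one median, offsets of 16 and 200, a filter at the median level, 1 probe set per gene, other variance models, only the arrays compared, the replicate number as a block and each array left out. Figures were drawn with matplotlib 3.10.9.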

Additional observations from a re-analysis of the deposited data

How the results depend on the processing

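Between RKIP-transgenic and control hearts, all called probe sets numbered 913, and 1708 with a filter at the median level, 483 with only the arrays compared, 1 with a variance without trend and 153 to 305 with 1 array left out. Called members numbered 4, and 7 with the filter, 1 of the 3 left with 1 probe set per gene, 0 without trend in limma (8 at an unadjusted p under 0.05) and 1 to 3 with 1 array left out. Called neighbours numbered 1, and 3 with the filter, 4 with 1 probe set per gene and 0 without trend (4 unadjusted). Between GRK-Inh-transgenic and control hearts, 1410 probe sets became 2324 with the filter, 136 without trend and 428 to 594 with 1 array left out. The 11 members became 2 of 3 with 1 probe set per gene, and the 3 neighbours 6 with 1 probe set per gene, 0 without trend (8 unadjusted) and 1 with any 1 array left out. Between RKIP-transgenic and GRK-Inh-transgenic hearts, 736 probe sets became 1293 with the filter, 449 with only the arrays compared, 43 without trend and 140 to 168 with 1 array left out. The 9 members became 3 of 3 with 1 probe set per gene, 4 without trend and 6 to 7 with 1 array left out, and the 4 neighbours 0 without trend (11 unadjusted) and 0 to 1 with 1 array left out. The filter tests fewer probe sets; the cause of the other shifts was not tested. No called member changed direction. The replicate block, which shares only a number, gave 778, 1209 and 566 called probe sets and 4, 11 and 8 called members in the 3 comparisons. Members near a signal of 50 depend on the offset: 1453426_a_at of Wdfy1 ran from -1.78 to -0.47 over the alternatives in GRK-Inh-transgenic against control hearts.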
